A study of Homo sapiens with 3 samples.

Results

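The 10 genes described here are known transcriptional targets of YAP, among them THBS1 and CCN2, and were measured in Caco-2 cells depleted of the transcript OCC-1. They were THBS1, CCN1, CCN2, ANKRD1, AMOTL1, AMOTL2, AJUBA, LATS2, CRIM1 and AXL. Every probe set annotated to 1 of these symbols alone was taken, which gave 10 of 18132 genes and 29 of the 49395 probe sets on the arrays. The set was chosen on the measured differences of THBS1 and CCN2 from control, so all member differences from control below are descriptions without a test.

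Caco-2 is an established human colorectal cancer line with an epithelial character. The study compared 1 array of cells carrying shCTRL, a non-target short hairpin RNA, with 2 arrays of cells carrying different hairpins against OCC-1, shOCC-1-1 (line 1) and shOCC-1-2 (line 2). Cells of all 3 arrays had been transduced with lentivirus, cultured in 20% serum, exposed to puromycin (1 µg per ml) over 5 days of selection and kept for 24 hours without the drug. All groups therefore share the vector and the selection, and each hairpin stands for 1 transduced culture, whose further replication the labels do not describe.

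YAP and its relative TAZ (gene symbol WWTR1) are coactivators without DNA binding of their own. They act in the nucleus through TEAD transcription factors, and the Hippo kinases MST and LATS phosphorylate them and keep them in the cytoplasm. In intestinal epithelium YAP is known for its part in regeneration after injury and in tumour growth. Several of its targets, LATS2, AMOTL1, AMOTL2 and AJUBA, act on the Hippo pathway themselves, while THBS1, CCN1 and CCN2 encode secreted matrix-associated proteins.

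The targeted transcript was lower in both lines. OCC-1 (C12orf75, 1 probe set) read 1219 in control cells, 518 in line 1 and 397 in line 2, a log2 difference of -1.43 ± 0.27 (SD, n = 2 lines). This SD, here and below, is the spread between the 2 lines and leaves out the error of the single control array. Median intensities of the arrays were 185.5, 182.5 and 183.6. The 23 background control probe sets, which differ in the number of G and C bases per probe, lay between 51.3 and 2307 in the control. Their log2 differences from control ran from 0.06 down to -0.37 in line 1 and from 0.04 down to -0.23 in line 2. All 29 member probe sets lay within the intensity range of these controls. Probe sequences were not used here, and the part of base composition in the member values was not tested.

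All 8 colon epithelial markers (VIL1, CDH1, EPCAM, CDX2, KRT8, KRT18, KRT20, CDH17) had a mean over the 3 arrays above the median of all probe sets (184). KRT20 was near that median, at 182 in the control. Their summed intensity was 31170 in control cells, 34005 in line 1 and 34552 in line 2. In limma, a linear model fitted across all genes, EPCAM (log2 difference 0.55 ± 0.08 SE, limma adjusted p = 0.009) and CDH1 (0.39 ± 0.07 SE, limma adjusted p = 0.021) rose and the other 6 did not pass. Over all genes tested, 9.63% rose and 3.06% fell in limma. The other CDH1 probe set lay at -0.07. Fibroblast markers, of interest because THBS1, CCN2 and AXL are abundant in stromal cells, read at most 260 in the control. Of these 4 of 7 were above the median, with summed intensities of 1352, 1325 and 1347. Of the endothelial and of the leukocyte markers 1 of 4 each was above it, with sums of 663, 608 and 658 and of 624, 617 and 555. Because intensities include background none was at 0, and the lowest was PTPRC at 75.5 in the control. All arrays held bulk RNA of Caco-2 cultures, in which fewer cells with a transcript and less of it per cell cannot be told apart.

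The promoters were examined first, because TEAD factors recognise the sequence GGAATG. RefSeq promoter windows (GRCh38.p14) were matched by symbol for 8 of the 10 members, with 11 annotated starts. In the 250 bases before the start, GGAATG was found on either strand in 6 of the 11 windows, each belonging to a different member. Of all 35116 RefSeq windows of that length 11.9% held at least 1 match, 0.94% at least 2 and 0.083% at least 3. CCN2 had 3 matches, which put it among 29 windows with 3 or more, and ANKRD1 had 2. THBS1 had 1, as did 1 of the 2 windows each of AMOTL2, AJUBA and AXL. AMOTL1 and LATS2 had none of these letters in their windows. A match is a description of letters and not a bound site.

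Windows of the 3 members that frame the array values are printed 5′ to 3′ with GGAATG in capitals. CCN2 has the most matches of all members, THBS1 has the largest difference from control, and ANKRD1 has the next most matches but was dim on the arrays. The CCN2 window is chr6:131951373-131951572 (minus strand), that of THBS1 is chr15:39580959-39581078 (plus strand), and that of ANKRD1 is chr10:90921187-90921327 (minus strand), all in GRCh38.p14.
CCN2: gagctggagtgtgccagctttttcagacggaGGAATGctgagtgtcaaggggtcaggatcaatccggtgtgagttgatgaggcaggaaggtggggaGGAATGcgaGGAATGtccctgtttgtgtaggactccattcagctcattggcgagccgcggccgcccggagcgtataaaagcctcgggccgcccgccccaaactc
THBS1: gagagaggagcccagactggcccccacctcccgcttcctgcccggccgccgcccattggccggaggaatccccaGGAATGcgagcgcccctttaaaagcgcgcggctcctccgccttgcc
ANKRD1: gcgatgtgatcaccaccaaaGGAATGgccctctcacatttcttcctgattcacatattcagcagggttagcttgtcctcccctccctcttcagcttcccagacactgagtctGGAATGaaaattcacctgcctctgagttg
In CCN2 the matches begin 169, 104 and 95 bases before the start, and the last pair is separated by only a few bases. The single THBS1 match begins 46 bases before the start, and those of ANKRD1 begin 220 and 128 bases before it. CCN2 was also the only member window with TATAAA, found in the core of many promoters, which 10.7% of all windows held on either strand. ANKRD1 was the only one with TGANTCA, the core of AP-1 sites, which 6.57% of all windows held on either strand. Neither motif overlapped a GGAATG match.

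**Figure D1:**
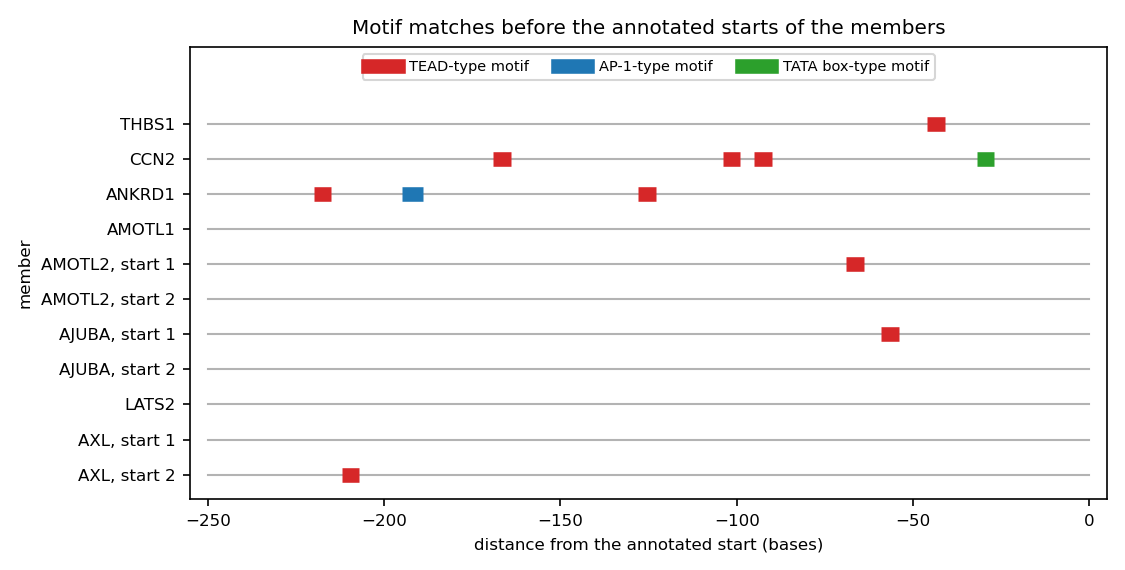
Motif matches in the 250 bases before each of the 11 annotated starts (rows), by distance from the start in bases (x axis). Red marks TEAD-type, blue AP-1-type and green TATA box-type matches; CCN2 has 3 red marks, ANKRD1 has 2 and THBS1 has 1.

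With the brightest probe set of each gene, the largest differences of the set were those of THBS1 and CCN2, on which it was chosen. THBS1 encodes thrombospondin 1, a matrix glycoprotein that binds the receptors CD36 and CD47 and can activate latent TGF-beta. Its brightest probe set over the 3 arrays, 11721090_at, read 255 in control cells, 518 in line 1 and 439 in line 2, or 2.03-fold and 1.72-fold of control (log2 difference 0.90 ± 0.17, SD, n = 2 lines). Both knockdown arrays were above the control, with line 1 the higher. By the size of its smaller difference it ranked 34 of 11329 genes above the intensity filter, which keeps genes with a mean at or above the median of all probe sets (intensity 184).

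The other 4 THBS1 probe sets did not read the same. 11721093_a_at gave 281 in control cells, 318 in line 1 and 236 in line 2, so the control lay between the lines. 11721091_a_at gave 201, 198 and 193, with all arrays close together. Below the filter, 11721092_a_at gave 112, 151 and 126, and 11758842_at gave 114, 110 and 91.6. The mean log2 differences of the 5 probe sets thus ran from -0.19 to 0.90. Of 988 genes with 5 probe sets, 4 including THBS1 had a range at least that wide, and the median range was 0.25. The 0.90 at the top of the THBS1 range is a value on which the set was chosen, so this comparison is a description and not a test. In the control alone 11721093_a_at was the brighter, so the probe set that stands for THBS1 depends on which arrays are used to pick it. With the probe set brightest in the control, the difference was 0.18 in line 1 and -0.25 in line 2. With the mean of all 5 it was 0.31 and 0.06.

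CCN2 (CTGF, connective tissue growth factor) is a matricellular protein and one of the most widely used readouts of YAP. Its brightest probe set, 11715442_s_at, read 232 in control cells, 329 in line 1 and 354 in line 2, or 1.41-fold and 1.52-fold of control (log2 difference 0.55 ± 0.075, SD, n = 2 lines). Both knockdown arrays were higher, and line 1 stayed short of 1.5-fold. 11715441_a_at gave 144, 174 and 180, also higher in both lines. 11715440_a_at gave 147, 149 and 165, with line 1 close to the control. All 3 CCN2 probe sets were therefore above control in both lines, by 0.09 to 0.55 on the log2 scale (mean of the lines), and those with the smaller differences lay below the filter. In the manufacturer's naming the suffix of the brightest one marks probes that may be shared with transcripts of other genes. Among the genes below, the brightest probe sets of AMOTL1, YAP1, FAT1, ITGAV, ITGB1, VCL and MRTFB, among others, carry the same suffix.

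CCN1 (CYR61), the closest functional relative of CCN2 in the set and an integrin-binding matrix protein, was less clear. 11715493_a_at read 184 in control cells, 227 in line 1 and 237 in line 2, higher in both lines. The slightly brighter 11749905_a_at read 228, 218 and 238, with the control between the lines. The mean log2 differences were 0.33 and 0.0005.

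**Figure D2:**
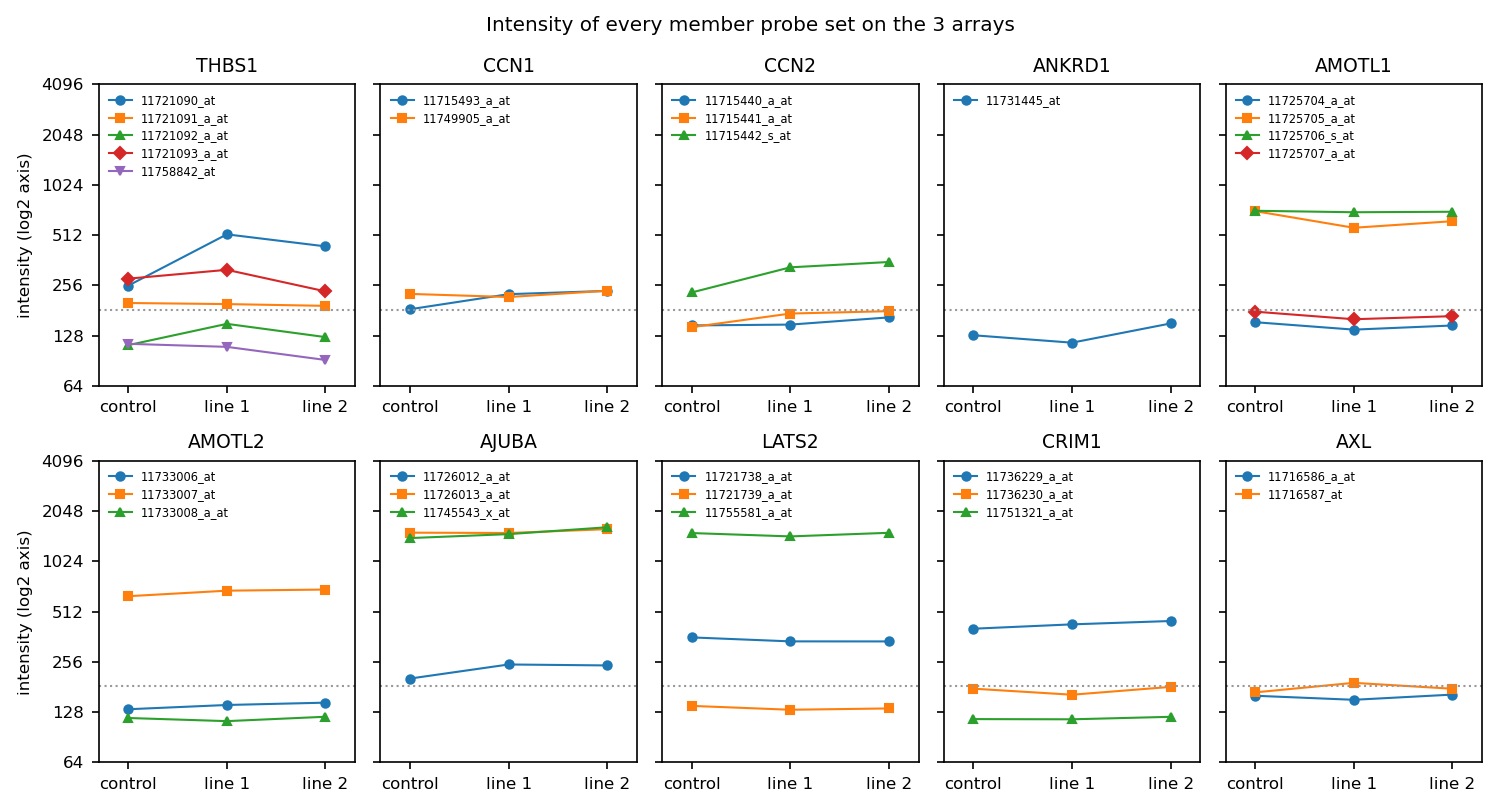
Intensity of each of the 29 member probe sets (log2 y axis) on the control, line 1 and line 2 arrays (x axis), 1 panel per gene, with 1 marker and line per probe set; the dotted line is the filter at an intensity of 184. The steep line is THBS1 probe set 11721090_at, from 255 to 518 and 439. The other THBS1 probe sets move less and differ in direction, such as 11721092_a_at (112, 151 and 126) and 11721093_a_at (281, 318 and 236). Most other members run nearly flat.

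The members that feed back on the Hippo pathway were close to control. LATS2, the kinase that phosphorylates YAP, read 1516 in control cells, 1447 in line 1 and 1521 in line 2 with its brightest probe set. Its other 2 probe sets gave 359, 340 and 340, and 140, 132 and 135. All 3 agreed in differing from control by less than 0.1 on the log2 scale in either line. AJUBA, a LIM protein that inhibits LATS kinases, read 1524, 1517 and 1599. A second bright probe set gave 1414, 1493 and 1642, and the dimmer 11726012_a_at gave 204, 247 and 244, a log2 difference of 0.27 ± 0.01 (SD, n = 2 lines).

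AMOTL1 and AMOTL2 encode angiomotin-like proteins that hold YAP at junctions and in the cytoplasm. AMOTL1 read 717, 703 and 708 with its brightest probe set. Another of nearly the same intensity, 11725705_a_at, gave 714 in control cells but 567 in line 1 (79.5% of control) and 621 in line 2 (87.0%). The remaining AMOTL1 probe sets, 154, 139 and 147, and 178, 161 and 168, were also lower in both lines. AMOTL1 was the only member with every probe set below control in both lines. AMOTL2 read 634, 684 and 695 with its brightest probe set, or 1.08-fold and 1.10-fold. Its other 2 gave 133, 141 and 146, and 118, 113 and 120.

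The remaining members, a nuclear cofactor and 2 membrane proteins, were mostly dim. ANKRD1, a muscle-associated ankyrin repeat protein of nucleus and sarcomere that is strongly YAP-inducible, had 1 probe set, at 129 in control cells, 116 in line 1 and 152 in line 2. The control lay between the lines, and the gene fell below the filter. AXL, the receptor tyrosine kinase for the ligand GAS6, read 168, 192 and 177 and, with its other probe set, 161, 152 and 163, both below the filter. CRIM1, a transmembrane protein that binds bone morphogenetic proteins, read 405, 430 and 450, or 1.06-fold and 1.11-fold. Its other probe sets gave 177, 163 and 181, and 116, 116 and 120.

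Counted together, 8 of the 10 members passed the intensity filter, and 1 of these 8, THBS1, differed from control by 1.5-fold or more in a common direction. By the same rule 1.36% of the 11329 genes were higher and 0.159% were lower. At the level of probe sets 1 of 29 members was 1.5-fold higher in both lines, against 0.714% of all 44988 probe sets with 1 symbol. Nothing is read from these counts, since the members were chosen with this contrast known. The median log2 difference of the 29 probe sets was -0.01 in line 1 and 0.06 in line 2, beside -0.04 and -0.02 over all probe sets with 1 symbol. In line 1 13 of the 29 (44.8%) were above control, and in line 2 20 (69.0%) were, against 39.6% and 42.8% of all probe sets with 1 symbol. Within 0.4 of control on the log2 scale in both lines were 26 of the 29 (89.7%), against 94.6% of all. Within 0.1 were 10 (34.5%), against 36.8% of all. The 2 lines share the control array, so their agreement is not counted as evidence.

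**Figure D3:**
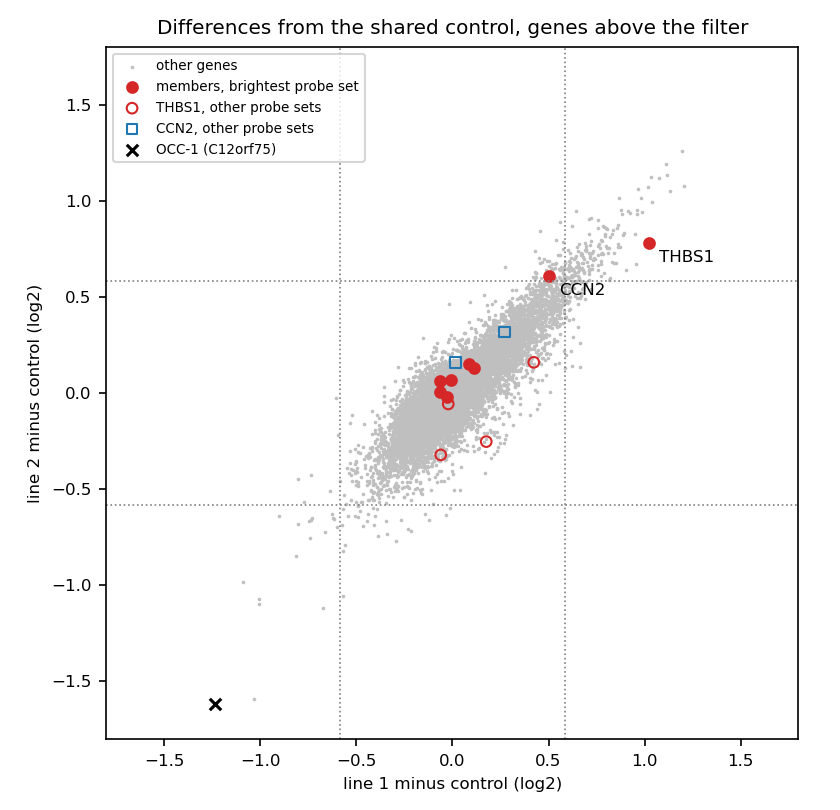
Log2 difference from control in line 1 (x axis) and line 2 (y axis) for the 11329 genes above the filter (grey), the 8 members that passed it (red) and OCC-1 (cross); dotted lines mark 1.5-fold. Open symbols are the other probe sets of THBS1 and CCN2; the filled THBS1 point at 1.02 and 0.78 lies far from its open circles, whereas 4 of the 8 filled members lie within 0.1 of the origin on both axes.

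The 2 knockdown arrays could also be set against each other, a contrast in which the control has no part. THBS1 was lower in line 2 than in line 1 in all 5 of its probe sets, by 0.04 to 0.43 on the log2 scale. Of all 29 member probe sets 21 (72.4%) were higher in line 2 than in line 1, with a median difference of 0.06. All 21 were among the 24 outside THBS1, whose median was 0.07. Over all probe sets with 1 symbol 52.3% were higher in line 2, with a median of 0.01. The background control with 23 G and C bases per probe read 904 in line 1 and 941 in line 2. That with 9 such bases read 62.6 in line 1 and 61.2 in line 2. The part of base composition in this contrast was not tested. CCN2, CCN1, AMOTL1, AMOTL2 and CRIM1 were higher in line 2 in every probe set, and ANKRD1 in its only one, by 0.38. With 1 array per hairpin there was no test of this difference, and probe sets of a gene are not independent. OCC-1 itself was lower in line 2 (397) than in line 1 (518), and a relation of its level to the member values was not tested.

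Genes with array patterns near those of the leading members were sought by the distance between pairs of log2 differences. Nearest to THBS1 were FREM2 (1.93-fold in line 1 and 1.78-fold in line 2, distance 0.09), LYZ (1.94-fold and 1.59-fold, distance 0.13) and G3BP2 (1.86-fold and 1.78-fold, distance 0.14). Only 1 gene lay within 0.1 of THBS1. Nearest to CCN2 were RAP1A (1.41-fold and 1.53-fold), PPIL4 (1.42-fold and 1.52-fold) and LRPPRC (1.42-fold and 1.51-fold), each at a distance of 0.01, and 115 genes lay within 0.1 of it. Likeness over 3 arrays is a weak description.

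Other genes of the pathway were taken from lists of its known components, chosen with earlier results of these data known. Of 54 such genes (kinases and adaptors, upstream regulators, effectors, other YAP targets) 52 had a probe set under their symbol and 38 passed the filter. By size 4 of the 38 were higher in both lines and 0 lower, beside 1.36% and 0.159% of all genes. Of these 4, FJX1 and LIMD1 were below the filter intensity in the control and passed it only through the knockdown arrays, where they were high, so the count is not read as support. In limma, adjusted over all 11329 genes, 10 of the 38 rose and 1 fell, beside 9.63% and 3.06% of all genes. As the lists were not chosen blind to these data, the limma counts, here and for the single lists below, are not read as support either. The 38 had medians of 0.04 in line 1 and 0.03 in line 2, against -0.03 and -0.02 over all genes above the filter. When the probe sets of each gene were averaged, 1 of 32 was called by size and 3 of 32 by limma. Over all 9481 genes of that setting 53 were called by size and 976 by limma.

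The transcript of YAP itself gave opposite readings. The brightest YAP1 probe set fell, from 4226 in the control to 3459 in line 1 and 3456 in line 2 (log2 difference -0.29 ± 0.07 SE, limma adjusted p = 0.047). Yet 11717920_a_at read 1602, 2634 and 2665, or 1.64-fold and 1.66-fold higher. Also higher in both lines were 11740548_a_at (1473, 2206 and 2232) and 11717921_x_at (2254, 2978 and 2970). The mean log2 differences of the 8 YAP1 probe sets ranged from -0.29 to 0.73, all above the filter. In line 1, 5 of the 8 were higher than control and 3 lower, and in line 2, 3 were higher and 5 lower. TAZ (WWTR1) rose with its brightest probe set, from 803 to 1152 and 1017 (0.43 ± 0.09 SE, limma adjusted p = 0.03). Its other 2 probe sets lay at -0.36 and 0.18. With averaged probe sets neither YAP1 nor TAZ kept its limma call. The TEAD factors, the DNA-binding partners, did not pass the test: TEAD1 had a log2 difference of -0.09, TEAD2 of -0.22, TEAD3 of -0.15 and TEAD4 of -0.09. The other 2 effectors above the filter, VGLL1 and VGLL4, which also bind TEAD, lay at -0.08 and 0.05.

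Among the kinases and adaptors 3 of 10 rose in limma and 0 fell, beside 9.63% and 3.06% of all genes, and none was 1.5-fold. They were MOB1B, a LATS activator (0.33 ± 0.08 SE, limma adjusted p = 0.034), STK38L, a LATS-related kinase (0.33 ± 0.07 SE, limma adjusted p = 0.033), and STK4, which encodes the MST1 kinase (0.31 ± 0.07 SE, limma adjusted p = 0.04). The 7 that did not pass included NF2, the tumour suppressor merlin, at -0.26. The other probe sets of STK38L had medians of 0.07 and -0.01, the other one of MOB1B lay at 0.01, and the other 5 of STK4 ran from -0.13 to 0.58. With averaged probe sets MOB1B, STK38L and STK4 all lost the limma call.

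Of the upstream regulators 4 of 10 rose in limma, beside 9.63% of all genes, and the other 6 did not pass. STRN3, a striatin of the phosphatase complex that restrains MST kinases, read 419 in control cells, 734 in line 1 and 693 in line 2 (0.77 ± 0.08 SE, limma adjusted p = 0.0049). LIMD1, a relative of AJUBA, read 181, 286 and 285 (0.66 ± 0.07 SE, limma adjusted p = 0.0053). WWC2, a KIBRA-family scaffold that activates LATS, read 271, 419 and 414 (0.62 ± 0.07 SE, limma adjusted p = 0.0056). FAT1, a giant protocadherin, read 1014, 1470 and 1460 (0.53 ± 0.07 SE, limma adjusted p = 0.0086). The first 3 passed 1.5-fold in both lines, beside 1.36% of all genes. LIMD1 was below the filter in the control (181 against 184) and passed it through the knockdown arrays. With the probe set brightest in the control STRN3 and WWC2 lost the call by size and WWC2 also that by limma, and with averaged probe sets all 3 lost the call by size and LIMD1 and WWC2 that by limma. Again other probe sets read less, with 0.02 and 0.47 for STRN3, 0.01 for LIMD1 and -0.07 to 0.17 for WWC2, while FAT1 had none.

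Among 18 other YAP targets 10 passed the filter, of which 2 rose in limma, 0 fell and 8 did not pass, beside 9.63% higher and 3.06% lower over all genes. FJX1, a secreted regulator in the Fat-Dachsous branch, read 160, 255 and 265 (0.70 ± 0.08 SE, limma adjusted p = 0.0053) with its only probe set, and was the 1 gene of this list past 1.5-fold in both lines. Its control value lay below the filter, which it passed through the knockdown arrays alone. ASAP1, an ARF GTPase-activating protein, read 766, 951 and 961 (0.32 ± 0.07 SE, limma adjusted p = 0.036), and its other probe sets ran from 0.09 to 0.20. Among those that did not pass, MYOF, a membrane repair protein, had a log2 difference of 0.13, F3, the tissue factor of coagulation, of 0.05, GADD45A of -0.06 and BIRC5, the apoptosis inhibitor survivin, of -0.24. The 8 below the filter, such as IGFBP3 and NT5E, were not tested. With averaged probe sets ASAP1 lost its limma call. This list had medians of 0.04 in line 1 and 0.11 in line 2, against -0.03 and -0.02 over all genes.

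Close relatives of the members were mostly too dim to read. The CCN family genes CCN3 to CCN6 and the thrombospondins THBS2, THBS3 and THBS4 all lay below the filter. Of the 6 relatives above it 1 rose in limma and 5 did not pass, beside 9.63% higher and 3.06% lower over all genes. The 1 was LIMD1, as given among the upstream regulators with its limit. AMOT, the founding angiomotin, read 470 in control cells, 527 in line 1 and 669 in line 2, 1.12-fold and 1.42-fold, with a limma adjusted p of 0.15. The AXL relatives MERTK and TYRO3 had log2 differences of 0.27 and -0.12.

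Of 10 ligands and receptors of the members 2 rose in limma, 1 fell and 7 did not pass, beside 9.63% higher and 3.06% lower over all genes. ITGAV, the integrin chain that pairs into receptors for CCN1, CCN2 and thrombospondin 1, read 433, 682 and 693 (0.67 ± 0.07 SE, limma adjusted p = 0.0053), but its other 4 probe sets had medians of 0.06 and 0.04. ITGB1, the integrin beta 1 chain, read 4466, 5467 and 5622 (0.31 ± 0.07 SE, limma adjusted p = 0.04), with its other 4 probe sets from -0.04 to 0.48. CD47, a thrombospondin 1 receptor, fell from 229 to 174 and 163 (-0.44 ± 0.08 SE, limma adjusted p = 0.017), and its other 2 probe sets lay at 0.0002 and 0.09. Both its knockdown values lay below the filter, which it passed through the control alone. ITGB5 had a difference of -0.30 and a limma adjusted p of 0.0501. The AXL ligands GAS6 and PROS1 did not pass, at 0.04 and 0.05.

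**Figure D4:**
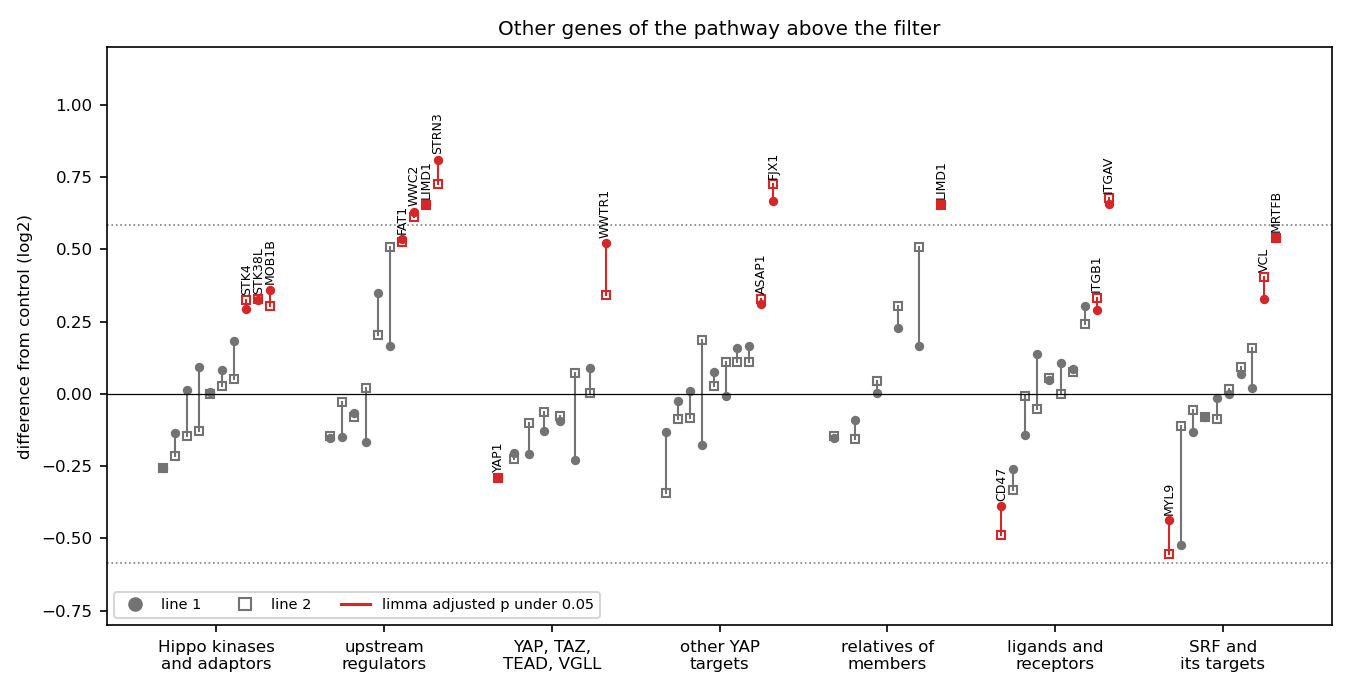
Log2 difference from control (y axis) of each gene above the filter in 7 lists of related genes (x axis), with line 1 as a filled circle and line 2 as an open square joined by a bar; red marks limma adjusted p under 0.05 and dotted lines 1.5-fold. STRN3 at 0.81 and 0.73 and FJX1 at 0.67 and 0.73 lie highest, and MYL9 at -0.44 and -0.55 is the lowest red gene.

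The member values depended more on the probe set than on the scaling of the arrays. Under cyclic loess or normexp background correction THBS1 was again the 1 member called by size. With the mean of all probe sets, or the probe set brightest in the control, 0 members were called. CCN2 was above control under all 8 settings tried, from 0.31 with the mean of its probe sets to 0.61 in line 2 alone, and it passed 1.5-fold in line 2 alone. AMOTL2, CRIM1 and AXL were above 0 under all 8 settings as well, by at most 0.19. AMOTL1 was below 0 under all 8, from -0.13 to -0.004. THBS1, CCN1, ANKRD1, AJUBA and LATS2 changed sign in 1 of the 8 settings each, THBS1 with the probe set brightest in the control and the other 4 when a line was left out. The 8 settings are not independent. Leaving out the filter changed no member value, and each line alone is part of the main mean. For CCN2, AMOTL1, AMOTL2, CRIM1 and AXL the probe set brightest in the control was also brightest over all arrays.

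**Figure D5:**
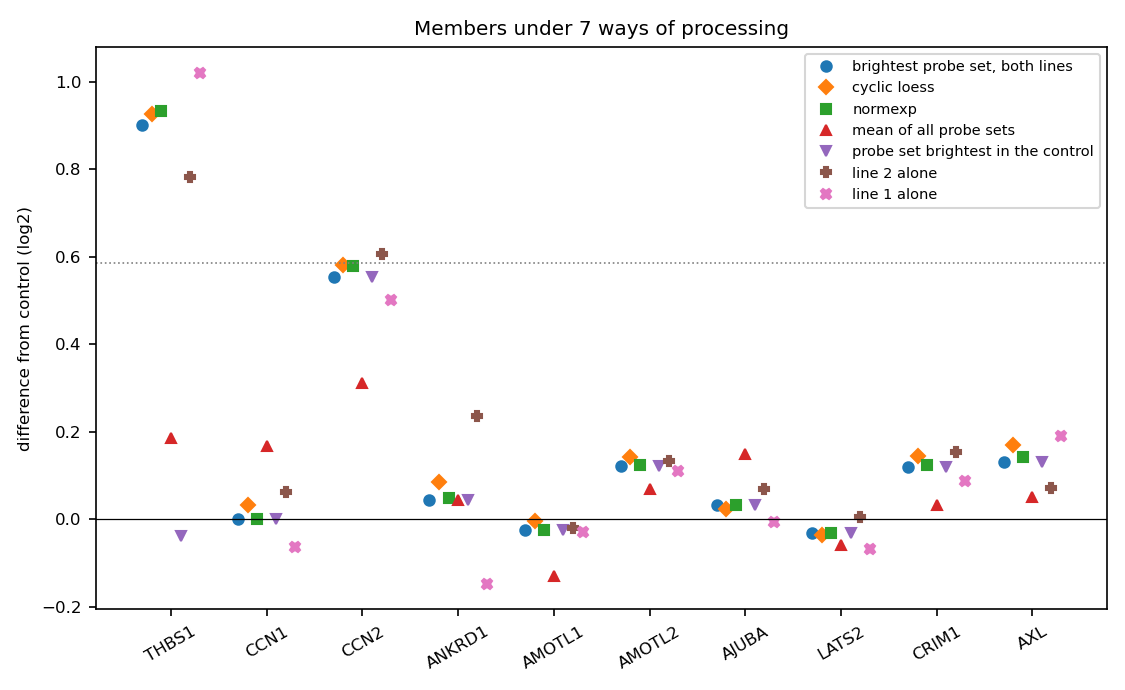
Log2 difference from control (y axis) of each member (x axis) under 7 ways of processing, 1 marker each; the dotted line is 1.5-fold. THBS1 spreads from -0.04 with the probe set brightest in the control to 1.02 in line 1 alone, and CCN2 stays between 0.31 and 0.61.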

How the data were processed

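The deposited tables hold linear intensities made by the authors, 1 for each array and probe set, from 50.1 to 19619. Per the submitters' processing notes RMA was used, and its version, settings and any background step are not given in the sources used here. Background control probe sets were well above 0 in these values. Intensities were converted to log2 here without further scaling.

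Names came from the platform annotation of each probe set, with 44988 carrying 1 symbol, 1832 several, 2473 none and 102 being array controls. Of the symbols 44961 were looked up in RefSeq by identifier and 0 changed. A gene (18132 in all) was represented by its brightest probe set, judged on mean log2 over the 3 arrays. The filter kept the 11329 genes at or above the overall probe set median (log2 7.52).

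A gene was called by size when both lines differed from control by 1.5-fold in a common direction. Two-sided tests used lmFit and eBayes of limma 3.58.1 under R 4.3.3, with Benjamini-Hochberg adjustment and a threshold of 0.05. The 2 knockdown arrays were set against the single control, which left 1 residual degree of freedom (6.96 after moderation). It assumes that the lone control varies like the knockdown arrays, and its p-values reflect only how these arrays vary, which may be technical. On simulated data over 11329 genes the size rule found 84 of 100 genes changed by log2 0.7 and 100 of 100 changed by 1.2. limma found 100 of 100 both times, and among 11129 genes left as they were, size gave 0 calls and limma 3. The simulated control was given the noise seen between the knockdown arrays, so these counts do not show the error rate in the real data.

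Members and lists were chosen with earlier results of these data known. Named were all members, OCC-1, in each list the genes called by size or limma and the 2 largest differences, and the 3 genes nearest to THBS1 and to CCN2. The other genes given as values that did not pass, for their roles, were chosen after their values were seen. Alternatives were averaging probe sets, no filter, cyclic loess, normexp (offset 50), other fold thresholds, leaving out a line, and the probe set brightest in the control. Motifs were searched on both strands in RefSeq windows, credited to GRCh38.p14. Python 3.11.15, numpy 2.4.6, pandas 2.3.3 and matplotlib 3.10.9 were used for the rest. With 3 arrays, precision is low throughout.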

Additional observations from a re-analysis of the deposited data

How the results depend on the processing

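Cyclic loess, normexp background correction and no filter each left 1 member and 4 of the other pathway genes called by size, and these 4 were the same genes. When probe sets were averaged per gene the counts fell to 0 members, 1 pathway gene (FJX1) and 53 genes in all by size (172 before, 154 higher and 18 lower). By limma 3 of 32 pathway genes were then called (11 of 38 before), beside 976 of 9481 genes in all (1438 of 11329 before). limma called 2208 genes without the filter, against 1438 with it. The probe set brightest in the control, an alternative chosen after seeing the data, gave 0 members and 2 pathway genes, with THBS1 reversed to -0.038, WWC2 and STRN3 lost, and 126 genes higher, all among the 154. At 1.3-fold 2 members (THBS1 and CCN2) and 708 genes were called, and at 2-fold 0 members, 0 pathway genes and 12 genes. Leaving out 1 knockdown array gave 1 to 2 members, and CCN2 was called when line 1 was left out. No paired analysis was possible because there was a single control array. Intensities near background limit what the dim probe sets, those of ANKRD1 and AXL among them, can show. In the control the brightest probe sets of THBS1 (255), CCN2 (232) and CCN1 (228) also read no higher than the fibroblast marker COL1A1 (260). The differences of THBS1 and CCN2 therefore start from a low control value.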

Other observations

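Serum response factor (SRF) and its cofactors share several targets with YAP. Of 11 SRF genes 10 passed the filter, of which 2 rose in limma, 1 fell and 7 did not pass, beside 9.63% higher and 3.06% lower over all genes. MRTFB, an SRF cofactor released from actin monomers, read 503 in control cells, 732 in line 1 and 731 in line 2 (0.54 ± 0.07 SE, limma adjusted p = 0.0081), though its other 2 probe sets lay at -0.09 and -0.05. VCL, the focal adhesion protein vinculin, read 1757, 2207 and 2324 (0.37 ± 0.08 SE, limma adjusted p = 0.027), with other probe sets from -0.15 to -0.10. MYL9, a myosin light chain, fell from 1991 to 1472 and 1356 (-0.50 ± 0.08 SE, limma adjusted p = 0.014), and its other probe set also lay low, at -0.30. SRF itself read 505, 506 and 511.

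Genes were also grouped by the number of GGAATG matches in the 250 bases before their start. Of 8077 genes above the filter without a match 1.40% were called higher by size. With 1 match it was 1.60% of 1122 genes, with 2 matches 2.53% of 79, and with 3 or more 0 of 6, CCN2 being 1 of the 6. The groups with 2 or more matches are small, and no test was made.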
